A study of Mus musculus with 6 samples.

Results

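The class I peptide loading complex was followed through 8 genes, Tap1, Tap2, Tapbp, Tapbpl, Erap1, Calr, Canx and Pdia3, chosen by name from the 35275 gene rows of each count table. All 8 had a row, and all 8 were among the 15191 genes that passed the filter on low counts. The libraries were RNA of whole lungs of Balb/c mice taken on day 7 after an injection into the tail vein of 250000 4T1 cells, which are mouse breast cancer cells that form lung metastases. Before RNA was taken the organs were flushed with PBS (20 mL). In the WT group (3 libraries) the injected cells were unmodified, and in the KO group (3 libraries) they lacked PD-L1. The host mice carry no labelled edit, so both groups differ only in the injected line, as far as the labels say. How PD-L1 was removed, whether the KO line is 1 clone, and the age and sex of the mice are not stated in the sources used here. A difference in PD-L1 therefore cannot be told apart from any other difference between the injected lines or in the tumour load they left.

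Cells show fragments of their proteins on MHC class I molecules at the surface, where CD8 T cells read them. The proteasome cuts the fragments, the TAP transporter carries them into the endoplasmic reticulum, aminopeptidases shorten them there, and a loading complex built around tapasin holds an empty class I molecule until a peptide fits. Interferons raise the transporter, tapasin and many of the genes around them, whereas calreticulin, calnexin and the disulfide isomerase ERp57 are general folding helpers of the endoplasmic reticulum that also serve in the complex.

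Library totals ran from 14711459 to 16932114 counts, and a member had between 772 counts (Tapbpl) and 13442 counts (Calr) in a library. Lung markers fitted the labelled tissue, with Sftpc of alveolar type 2 cells at 7846 ± 481.2 CPM in the WT group and 7784 ± 1063 CPM in the KO group (SD, n = 3). CPM are counts scaled to a common library size with edgeR's TMM. Cd274, the gene of PD-L1, had 910, 912 and 1132 counts in the WT and 1514, 3013 and 4929 counts in the KO libraries, with an edgeR adjusted p of 0.161. Its mean was 63.47 CPM in the WT and 198.5 CPM in the KO group, a log2 difference of 1.65 towards KO lungs. The host keeps this gene and an edited allele can still be read, so these values neither bear out nor contradict the KO label. Of 6 general leukocyte markers, 3 rose in KO lungs (Cd52, Cd53 and Coro1a), beside 1.12% of all tested genes that rose and 0.336% that fell. The summed level of the 6 was 1047 to 1312 CPM in the WT and 1361 to 1774 CPM in the KO libraries. No leukocyte marker rose without WT replicate 1, WT replicate 2 or KO replicate 2, 2 rose without WT replicate 3, 4 without KO replicate 1 and 1 without KO replicate 3. With the libraries left out in that order, 0.178%, 0.141%, 0.147%, 1.2%, 2.58% and 0.232% of all genes rose. Of 5 myeloid, 5 T cell and 4 B cell markers none passed the edgeR test, while 4, 2 and 3 of them were higher at an unadjusted p under 0.05, where 8.29% of all tested genes were higher and 6.33% lower. DESeq2 called 1, 2 and 1 of them higher, and limma-voom called 0. Their summed levels were 3568 to 4337, 63.25 to 94.66 and 74.81 to 120 CPM in the WT libraries and 4793 to 5317, 90.24 to 129.4 and 110.9 to 181.4 CPM in the KO libraries. Among 5 endothelial and 4 fibroblast markers, Vwf and Pdgfra fell by edgeR. Of 4 platelet markers, Ppbp fell by edgeR and limma-voom, DESeq2 called 3 lower, and all 4 were lower at an unadjusted p under 0.05 with groups that did not overlap. The platelet markers had a median log2 difference of -1.87 and summed to 43.81 to 66.88 CPM in the WT and 12.06 to 23.24 CPM in the KO libraries. Of 5 alveolar type 2, 4 alveolar type 1 and 3 red cell markers, 0 passed by edgeR, DESeq2 or limma-voom, with 1, 0 and 0 lower at an unadjusted p under 0.05. In RNA of a whole organ, fewer cells of a type and less RNA per cell cannot be told apart, and the part of these cells in the results that follow was not tested.

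In lungs with KO cells the transporter genes Tap1 and Tap2 and the tapasin-like editor gene Tapbpl rose, by 2.70-fold, 2.02-fold and 1.78-fold. Tapbp, which encodes tapasin, lay higher on average but did not pass, and Erap1, the peptide-trimming enzyme, had mean levels of 114.7 and 115.1 CPM in WT and KO lungs. None of the 3 chaperone genes passed, with log2 differences of 0.37 (Calr), 0.20 (Pdia3) and 0.05 (Canx). Thus 3 of 8 members rose and 0 fell by edgeR's quasi-likelihood test with p-values adjusted over all 15191 genes, where 1.12% of all genes rose and 0.336% fell. At an unadjusted p under 0.05, 5 members were higher and 0 lower, beside 8.29% and 6.33% of all tested genes. DESeq2, which called 2.44% of all genes higher, called 5 members higher and 0 lower, adding Tapbp and Calr. Limma-voom, which called 0.764% of all genes higher, called 2 members higher and 0 lower, without Tap1. An edgeR fit without the filter on low counts called 5 members and 2.66% of all genes higher, and one with the replicate number as a block called 3 members and 2.03%. The median log2 difference was 0.45 over the 8 members and 0.01 over all tested genes.

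**Figure D1:**
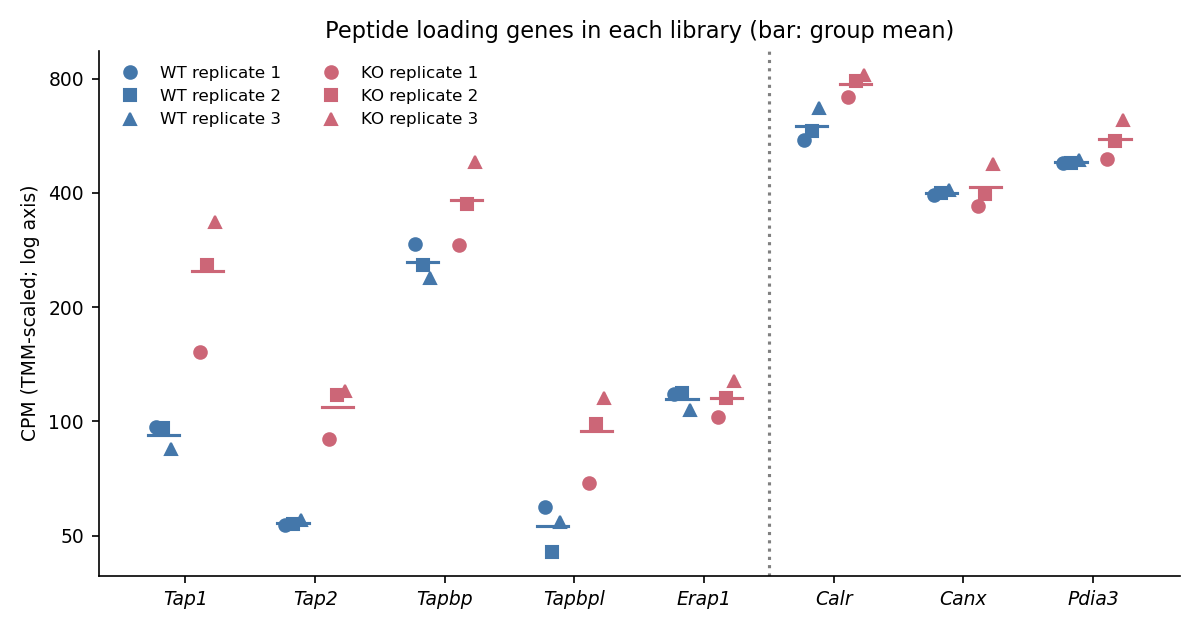
Level of each member in each library, in CPM on a log axis, with WT libraries in blue, KO libraries in red, a symbol for each replicate number and a bar at each group mean. Tap1, Tap2 and Tapbpl show 3 KO values above 3 WT values, Erap1 and Canx show groups that overlap, and KO replicate 1 is the lowest KO library for each of the 8 genes.

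The call count depended on single libraries. Tap2 alone rose when WT replicate 1, WT replicate 2, WT replicate 3 or KO replicate 2 was left out, where 0.178%, 0.141%, 1.2% and 0.147% of all genes rose. Tap1 and Tap2 rose without KO replicate 3, where 0.232% of all genes did. Leaving out KO replicate 1 gave 5 members (Tap1, Tap2, Tapbp, Tapbpl and Calr) and 2.58% of all genes. Tap2 was the member that rose in all 6 of these reduced fits, with edgeR adjusted p between 5.08e-05 and 0.0317.

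Tap1 and Tap2 encode the subunits of the ATP-driven pump that brings peptides into the endoplasmic reticulum. Tap1 (ENSMUSG00000037321) lies on chromosome 17 at 34187553 to 34197225 of GRCm38, and Tap2 (ENSMUSG00000024339) follows on the same strand at 34203527 to 34216321, 6.3 kb further on. Tap1 had 96.52, 96.01 and 84.47 CPM in the WT libraries, in the order of their replicate numbers, and 152.2, 258.8 and 336.1 CPM in the KO libraries. The groups did not overlap, and the KO libraries were spread over a more than 2-fold range, with KO replicate 1 lowest. The log2 fold change of Tap1 was 1.43 ± 0.25 (SE; edgeR adjusted p = 0.0347), and leaving out WT replicate 1, WT replicate 2, WT replicate 3 or KO replicate 2 ended the call (adjusted p = 0.173, 0.153, 0.087 and 0.156). Tap2 had 53.35, 53.61 and 55.07 CPM in the WT libraries and 89.98, 117.2 and 119.9 CPM in the KO libraries. The WT values lay within 2 CPM of each other, and every KO library was higher than all of them. The log2 fold change of Tap2 was 1.01 ± 0.13 (edgeR adjusted p = 0.00355), the 4th smallest p of all tested genes. Of the 3781 exonic bases of Tap2, 165 are shared with Gm20496 and 533 with Gm15821, both on the opposite strand.

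Tapbp encodes tapasin, the bridge between TAP and the empty class I molecule, and Tapbpl encodes TAPBPR, a relative that exchanges peptides outside the complex. Tapbp (ENSMUSG00000024308, chromosome 17, 33915899 to 33929292) had 294.0, 258.1 and 239.2 CPM in the WT libraries and 291.3, 374.3 and 483.3 CPM in the KO libraries. KO replicate 1 was below WT replicate 1, so the groups overlapped. Its log2 difference was 0.54 ± 0.15, which missed the threshold (edgeR adjusted p = 0.11), with a 95% interval of 0.21 to 0.87. It passed without KO replicate 1, at a log2 fold change of 0.70 and an adjusted p of 0.00517. Tapbpl (ENSMUSG00000038213, chromosome 6, 125223933 to 125231860) had 59.33, 45.33 and 54.41 CPM in the WT libraries and 68.81, 98.55 and 115.0 CPM in the KO libraries, without overlap. Its log2 fold change was 0.83 ± 0.17 (edgeR adjusted p = 0.0319). Tapbpl passed without KO replicate 1 and was lost when any other single library was left out, at adjusted p of 0.0572 to 0.164.

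Erap1 encodes the aminopeptidase that trims peptides to the length class I molecules hold. Erap1 (ENSMUSG00000021583, chromosome 13, 74639568 to 74693201) had 118.3, 118.6 and 107.1 CPM in the WT libraries and 102.5, 114.9 and 127.9 CPM in the KO libraries. The lowest and the highest of the 6 values were both KO libraries. The log2 difference was 0.01 ± 0.11 (edgeR adjusted p = 0.988), with a 95% interval of -0.23 to 0.25. This interval lay below those of Tap1, Tap2 and Tapbpl but overlapped that of Tapbp (0.21 to 0.87). The sign of the Erap1 difference turned with the scaling, to -0.004 with DESeq2's size factors. Of its exonic bases, 834 of 7280 are shared with Cast on the opposite strand, which had a log2 difference of -0.15 ± 0.10. Without a stated strand setting, reads in the shared stretch cannot be assigned.

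Calr encodes calreticulin and Canx encodes calnexin, lectins that hold sugar-bearing proteins while they fold, and Pdia3 encodes ERp57, which is bound to tapasin inside the loading complex. Calr (ENSMUSG00000003814, chromosome 8, 84841850 to 84846934) had 551.7, 583.6 and 670.2 CPM in the WT libraries and 716.1, 790.2 and 819.6 CPM in the KO libraries. The groups did not overlap, yet the log2 difference, 0.37 ± 0.11, missed the threshold (edgeR adjusted p = 0.131; 95% interval 0.13 to 0.60). It passed without KO replicate 1 (adjusted p = 0.0489). Pdia3 (ENSMUSG00000027248, chromosome 2, 121413775 to 121438687) had 478.0, 478.6 and 488.1 CPM in the WT libraries and 492.3, 548.5 and 624.1 CPM in the KO libraries. KO replicate 1 was only just above the WT libraries, and the log2 difference, 0.20 ± 0.11, missed it too (edgeR adjusted p = 0.416; 95% interval -0.03 to 0.44). Canx (ENSMUSG00000020368, chromosome 11, 50293961 to 50325673) had 394.8, 399.9 and 407.2 CPM in the WT libraries and 368.6, 397.6 and 477.3 CPM in the KO libraries. The KO values lay on both sides of the WT values, with a log2 difference of 0.05 ± 0.11 (adjusted p = 0.892; 95% interval -0.19 to 0.29). Counted over all members, 5 of 8 had every KO library above every WT library, as had 10.3% of all tested genes, and 0 of 8 had the reverse, as had 9.4% of all tested genes.

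**Figure D2:**
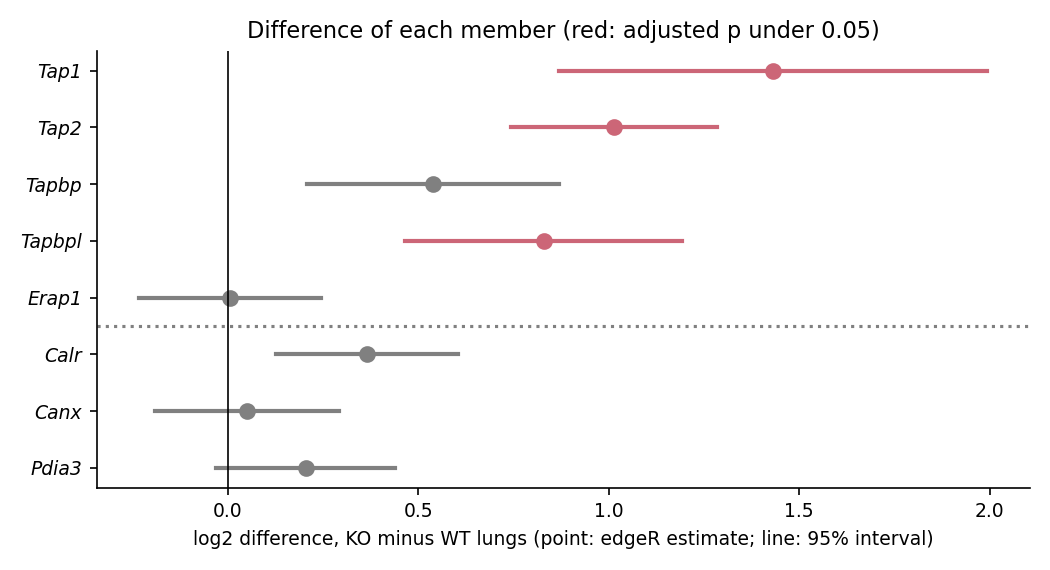
Log2 difference between KO and WT lungs for each member, with edgeR's estimate as a point and its unadjusted 95% interval as a line, red where the adjusted p was under 0.05. The intervals of Tap1 and Tap2 lie above those of Erap1 and Canx, and the 3 chaperones below the dotted line all have estimates under 0.4.

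The contrast between the 5 interferon-induced members and the 3 chaperones was taken within each library, as the mean of log2(CPM + 1) over the first minus that over the second. This difference was -2.20, -2.35 and -2.46 in the WT libraries and -2.03, -1.73 and -1.67 in the KO libraries, in replicate order. Every KO library was nearer to 0 than every WT library. The mean moved by 0.53 on the log2 scale, from -2.34 ± 0.13 to -1.81 ± 0.19 (SD, n = 3). The interferon-induced mean was 0.73 higher in KO lungs and the chaperone mean 0.20 higher. With Tap1, Tap2 and Tapbp alone against the chaperones the shift was 0.75. No test was run on this score, since its members were chosen with results of these data known.

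Levels between genes were compared per kilobase of exonic length (RPKM, from the CPM above). In WT lungs the order was Calr at 209.0 ± 21.3 RPKM, Pdia3 at 153.4 ± 1.8, Canx at 85.4 ± 1.33, Tapbp at 72.7 ± 7.67, Tapbpl at 22.5 ± 3.02, Tap1 at 16.9 ± 1.24, Erap1 at 15.8 ± 0.905 and Tap2 at 14.3 ± 0.245 (SD, n = 3). Among neighbours in this order only the libraries of Tap1 and Erap1 overlapped. The gap between Erap1 and Tap2 was small, with 14.71 RPKM in the lowest WT library of Erap1 and 14.56 in the highest of Tap2. The exonic lengths of Tap2, Erap1 and Tapbp include stretches shared with other genes, so small gaps between genes cannot settle their order. In KO lungs Calr (269.2 ± 18.5 RPKM) and Pdia3 (176.8 ± 21.1) led again. Tapbp at 105.6 ± 26.5 RPKM and Canx at 88.3 ± 12 came next and overlapped, as did Tap1 at 45.5 ± 16.9, Tapbpl at 40.0 ± 9.96 and Tap2 at 28.8 ± 4.38. Erap1 was last, with every KO library at or under 17.6 RPKM and below those of the other 7 genes. Of the summed RPKM of all 8 genes, Tap1 made up 2.86% ± 0.29 in WT and 5.77% ± 1.4 in KO lungs, and Tap2 2.42% ± 0.029 and 3.74% ± 0.23. Canx went from 14.5% ± 0.24 to 11.5% ± 0.48 of the sum, and Erap1 from 2.67% ± 0.22 to 2.06% ± 0.068.

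Ratios within a library compare members without the scaling between libraries, and were chosen after values had been seen. Erap1 stood to Tap1 as 0.922, 0.929 and 0.953 in the WT libraries and as 0.506, 0.334 and 0.286 in the KO libraries, in RPKM. Tapbp had 4.60, 4.06 and 4.27 times the RPKM of Tap1 in WT and 2.89, 2.18 and 2.17 times in KO lungs. Both ratios to Tap1 were lower in each KO library than in any WT library. Tap1 had 1.25, 1.24 and 1.06 times the RPKM of Tap2 in WT and 1.17, 1.52 and 1.94 times in KO lungs, so this ratio overlapped through KO replicate 1. Among the chaperones, the ratio of Pdia3 to Canx was 1.81, 1.79 and 1.79 in WT and 2, 2.06 and 1.95 in KO lungs. The ratio of Calr to Canx was 2.28, 2.38 and 2.68 in WT and 3.17, 3.24 and 2.80 in KO lungs. Neither of these ratios to Canx overlapped between the groups, whereas the ratio of Pdia3 to Calr did (0.795, 0.753 and 0.668 in WT, 0.631, 0.637 and 0.699 in KO lungs). The ratios of Pdia3 and of Calr to Tapbp overlapped as well, and those of Tapbp to Tap2 and to Tapbpl were lower in each KO library than in any WT library. With 3 libraries against 3, an exact permutation test cannot go below p = 0.1, and none is given for the 10 ratios computed.

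**Figure D3:**
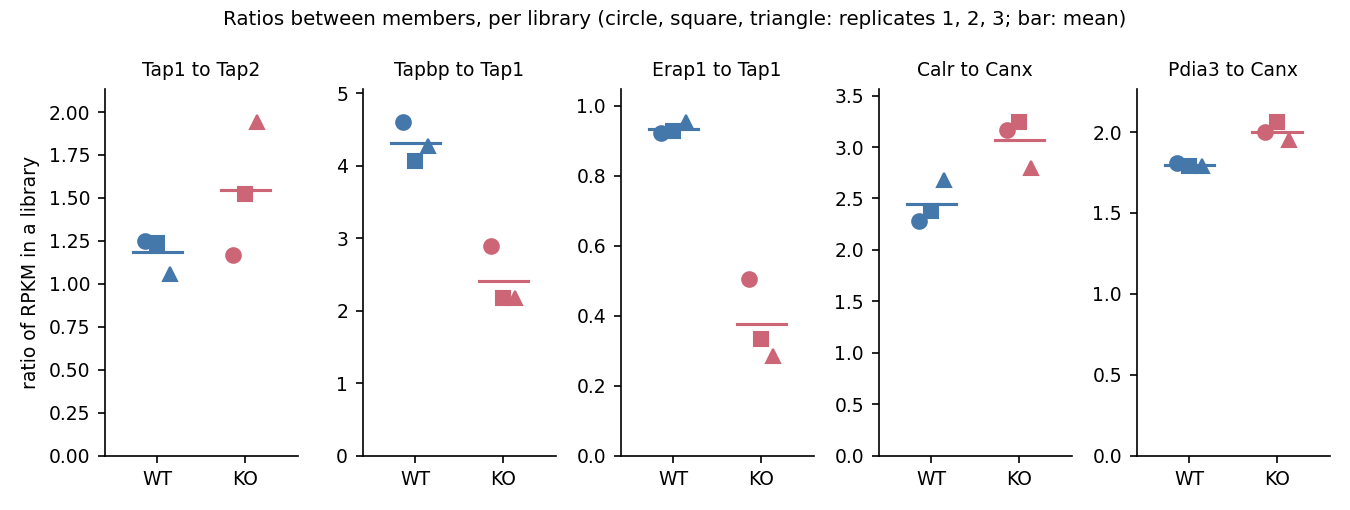
Ratio of RPKM between pairs of members in each library, with linear axes from 0, WT in blue, KO in red and a bar at each mean. Tapbp to Tap1 and Erap1 to Tap1 are lower in all KO libraries, and Tap1 to Tap2 overlaps between the groups.

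Promoter sequences from RefSeq (GRCm38.p6; 250 bases before to 50 after the start site) were found for 6 members and were searched on both strands for elements of the interferon response and of the unfolded protein response. Tap2 and Tapbpl had no entry. The searched interferon element, GAAA followed after any 2 bases by GAAA, which interferon regulatory factors bind, was present in 3.44% of 32851 promoter windows and in 1 of the 6 members, Erap1. The gamma-activated site TTCNNNGAA was in 8.3% of windows and in 0 of the 6. The endoplasmic reticulum stress element, CCAAT followed after any 9 bases by CCACG, through which ATF6 and its partner NF-Y act, was in 39 windows, or 0.119%, and in Calr and Canx. The matching stretches are shown because they are the members' only matches to these motifs, with the match in capitals. The stretch of Erap1 (chr13:74639839-74639868, plus strand) runs from base -14 to base 16 around the start site, that of Calr (chr8:84847069-84847098, minus strand) from -167 to -138, and that of Canx (chr11:50325794-50325823, minus strand) from -150 to -121. Start sites here are those of RefSeq and can lie inside the gene spans given above. All 30 printed bases of Erap1 lie in annotated exons, and the Tapbp window (33919228 to 33919527) lies inside the Tapbp span. In Erap1 and Calr the element reads on the strand opposite to the one printed.
Erap1: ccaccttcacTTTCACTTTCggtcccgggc
Calr: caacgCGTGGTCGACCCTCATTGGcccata
Canx: attgaCCAATCACCACGCTCCACGaagaat
The member with the interferon element in its window, Erap1, was the one with the smallest log2 difference. The windows of Tap1 and Tapbp, which had log2 differences of 1.43 and 0.54, held neither interferon motif in these letters. Among the related genes with an entry, the interferon element was in 3 of 10 class I chain genes (H2-T22, H2-T23 and B2m), 2 of 6 regulators (Irf2 and Stat2) and 1 of 6 immunoproteasome genes (Psme1), and in 0 genes of the other lists. The gamma-activated site was in H2-M3, Irf1, Irf2, Psmb8 and Edem2. The stress element was in 6 of 16 chaperone and unfolded protein response genes (Hspa5, Hsp90b1, Dnajc3, Creld2, Syvn1 and Derl3) and in 1 of 14 calnexin cycle genes (Pdia6). A listed gene was counted if any of its windows matched, whereas the percentages above are of windows, so the 2 are not on the same unit. A match is a run of letters and not a measured binding site.

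The rest of the class I pathway was read from lists of genes other than the members. Of 12 class I chain genes, counting B2m, the light chain, 8 rose and 0 fell, with a median log2 difference of 0.74. Of all tested genes, 1.12% rose and 0.336% fell, and the same shares stand beside the next 2 lists. The smallest p-values belonged to H2-T23 (295.4 ± 41.4 to 690.9 ± 159.1 CPM) and H2-K1 (90.1 ± 3.65 to 152.2 ± 10.5 CPM). Near-identical H2 genes may share or lose reads, and Balb/c sequence differs from the reference there. Of 6 immunoproteasome and activator genes, which supply the peptides, 4 rose and 0 fell, with a median of 0.96, among them Psmb9 (46.0 ± 4.28 to 118.2 ± 31.1 CPM) and Psmb10 (77.8 ± 6.73 to 148.4 ± 37.9 CPM). Psmb8 had the largest log2 difference of this list, 1.43 ± 0.34, with groups that did not overlap, but did not pass (edgeR adjusted p = 0.115). Of 8 regulators of class I genes, 4 rose and 0 fell, with a median of 0.47. The smallest p-values belonged to Stat2 (74.8 ± 6.94 to 144.9 ± 22.2 CPM), which carries the interferon signal, and to the interferon factor Irf1 (269.7 ± 47.1 to 507.9 ± 55.7 CPM). The others that rose were Irf9 and Nlrc5, the class I transactivator. The regulators of the RFX complex, Rfx5, Rfxap and Rfxank, had log2 differences of 0.31, 0.10 and -0.01. DESeq2 called 9 class I chains, 6 immunoproteasome genes and 4 regulators higher, and limma-voom 7, 4 and 4, beside 2.44% and 0.764% of all genes. In the order WT replicates 1, 2 and 3 and KO replicates 1, 2 and 3 left out, 4, 3, 5, 9, 3 and 4 class I chains, 1, 1, 5, 5, 1 and 1 immunoproteasome genes and 2, 2, 3, 4, 1 and 2 regulators rose. Of all genes, 0.178%, 0.141%, 1.2%, 2.58%, 0.147% and 0.232% rose in these fits.

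Other peptidases that can cut peptides on their way to class I were read beside Erap1. Of 7 such genes, 0 rose and 0 fell by edgeR, with a median log2 difference of -0.06, and 1 was higher at an unadjusted p under 0.05. That gene was the leucine aminopeptidase gene Lap3, at 33.7 ± 5.08 CPM in the WT group and 63.1 ± 21.8 CPM in the KO group (edgeR adjusted p = 0.051), which DESeq2 called and limma-voom did not. Nrdc, at 190.4 ± 12.9 and 167.2 ± 5.71 CPM, had the next smallest p, with a log2 difference of -0.19. Lnpep, the closest relative of Erap1, had -0.06 ± 0.13.

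Partners of the chaperones in the folding of new proteins were read in the same way. Of 17 genes of the calnexin cycle and disulfide exchange, 0 rose and 0 fell by edgeR, DESeq2 or limma-voom, with a median of 0.11. At an unadjusted p under 0.05, 4 of the 17 were higher and 1 lower, beside 8.29% and 6.33% of all tested genes. Pdia6, a disulfide isomerase, had a log2 difference of 0.34 ± 0.11 (edgeR adjusted p = 0.174), and Edem1, which passes misfolded proteins to disposal, had 0.32 ± 0.11 (adjusted p = 0.182). Of 20 other chaperone and unfolded protein response genes, 1 rose and 0 fell, with a median of 0.18. The gene that rose was Manf, a stress-induced factor of the endoplasmic reticulum, from 48.7 ± 11.8 to 79.1 ± 3.71 CPM (edgeR adjusted p = 0.043), and Sdf2l1 did not pass (0.83 ± 0.20, adjusted p = 0.063). Of the 20, 5 were higher and 0 lower at an unadjusted p under 0.05, beside 8.29% and 6.33% of all tested genes. DESeq2 called 3 of the 20 higher, and with the libraries left out in the same order, 0, 0, 2, 2, 0 and 0 of these 20 rose. Hspa5, the abundant chaperone BiP, was at 991.3 ± 58.3 and 1181 ± 201.1 CPM and did not pass (0.25 ± 0.13). Plasma cells are rich in this machinery. Of their markers, Mzb1 was at 5.05 ± 2.36 and 8.01 ± 0.321 CPM in WT and KO lungs, Jchain at 23.5 ± 10.7 and 51.9 ± 10.6 CPM, and Sdc1, which epithelial cells also express, at 152.5 ± 18.9 and 149.9 ± 23.5 CPM, while Tnfrsf17 did not pass the filter on low counts. None of the 3 tested plasma cell markers passed by edgeR or limma-voom, DESeq2 called 1, and 1 was higher at an unadjusted p under 0.05. Their summed level was 156.1 to 196.7 CPM in WT and 182.6 to 224.1 CPM in KO libraries, most of it from Sdc1, and their part in the chaperone values was not tested.

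**Figure D4:**
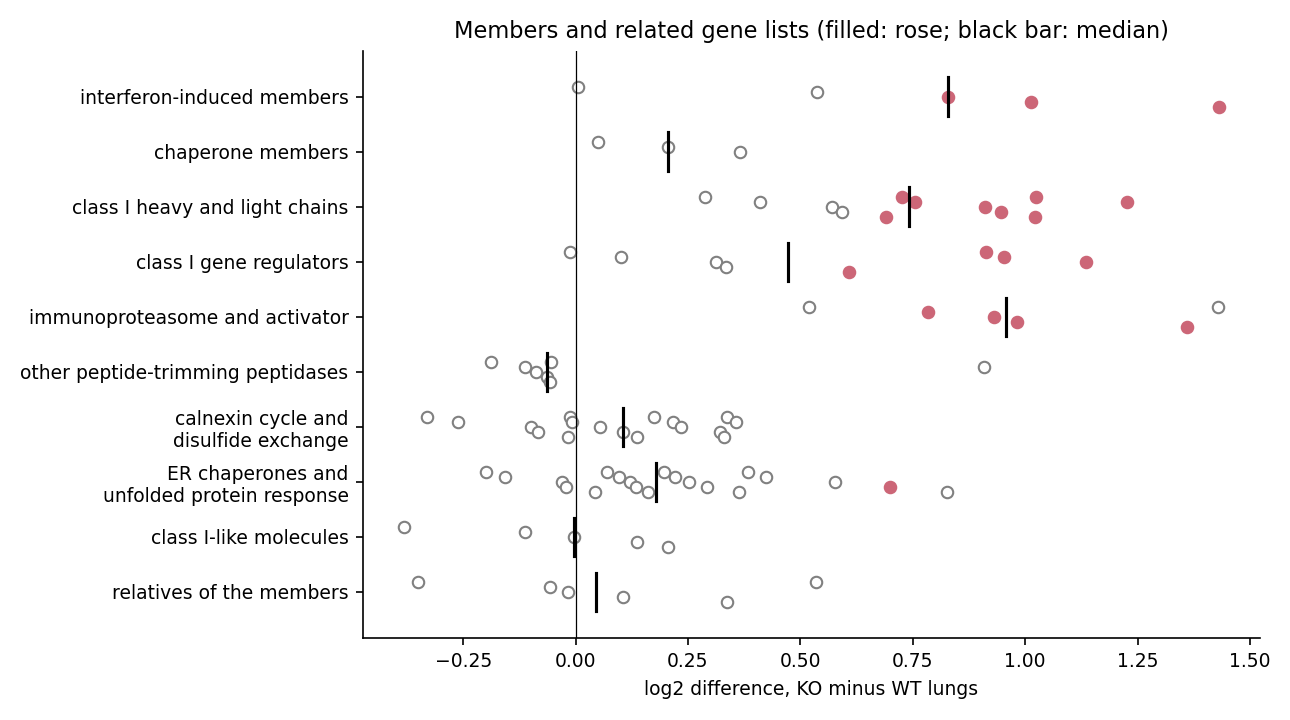
Log2 difference between KO and WT lungs for each tested gene of the member groups and of the related lists, filled red where the gene rose by edgeR, with a black bar at each list's median. Filled points gather in the interferon-induced members, the class I chains, their regulators and the immunoproteasome, while the other peptidases, the calnexin cycle genes and the class I-like molecules centre near 0.

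Molecules and enzymes that resemble the members or their clients were read as well. Of 5 class I-like genes, which encode molecules built like class I heavy chains, 0 rose and 0 fell by edgeR, DESeq2 or limma-voom, with a median log2 difference of -0.004 and 1 lower at an unadjusted p under 0.05. Mr1, which presents vitamin metabolites, was at 43.2 ± 6.96 and 33.2 ± 0.768 CPM (-0.38 ± 0.15, edgeR adjusted p = 0.242), and Cd1d1, which presents lipids, had 0.21 ± 0.16. Of 7 relatives of the members, 6 were tested and 0 rose and 0 fell by the same tools, with 1 higher at an unadjusted p under 0.05, Pdia6. Among these, Lnpep was already counted with the peptidases, and Pdia4, Pdia6 and P4hb with the calnexin cycle genes, so they add no separate result. Abcb9, a lysosomal transporter related to TAP, was at 21.4 ± 1.15 and 16.7 ± 2.70 CPM (-0.35 ± 0.18, edgeR adjusted p = 0.403).

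Tap1, Tap2 and Tapbp lie in the H2 region, the mouse major histocompatibility complex, where Tap1 starts 258.3 kb beyond the end of Tapbp. Of 11 other protein-coding genes within 100 kb of Tap1 or Tap2, 6 rose and 0 fell, beside 1.12% and 0.336% of all tested genes. The median log2 difference of the 11 was 1.08. Those that rose were the immunoproteasome gene Psmb9 and the class II genes H2-DMa, H2-DMb2, H2-Ab1, H2-Aa and H2-Eb1. Brd2, a chromatin reader in the same stretch, had a log2 difference of 0.08 ± 0.10. Psmb9 is read from the opposite strand and shares 212 exonic bases with Tap1, so some of their reads cannot be assigned. Around Tapbp 16 neighbours were tested and 2 rose, H2-K1 and Daxx, a chaperone of histones, from 41.2 to 66.8 CPM. Zbtb22, which shares 149 exonic bases with Tapbp on the same strand, had 0.04 ± 0.15, and Gm19412 shares 904 of the 3628 exonic bases of Tapbp on the opposite strand. Around Tapbpl, which itself rose, 0 of 10 tested neighbours rose. Around Erap1, Calr, Canx and Pdia3, 0 of 1, 9, 6 and 8 tested neighbours rose. The window was set after the values had been seen, and the neighbours are given as a description.

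**Figure D5:**
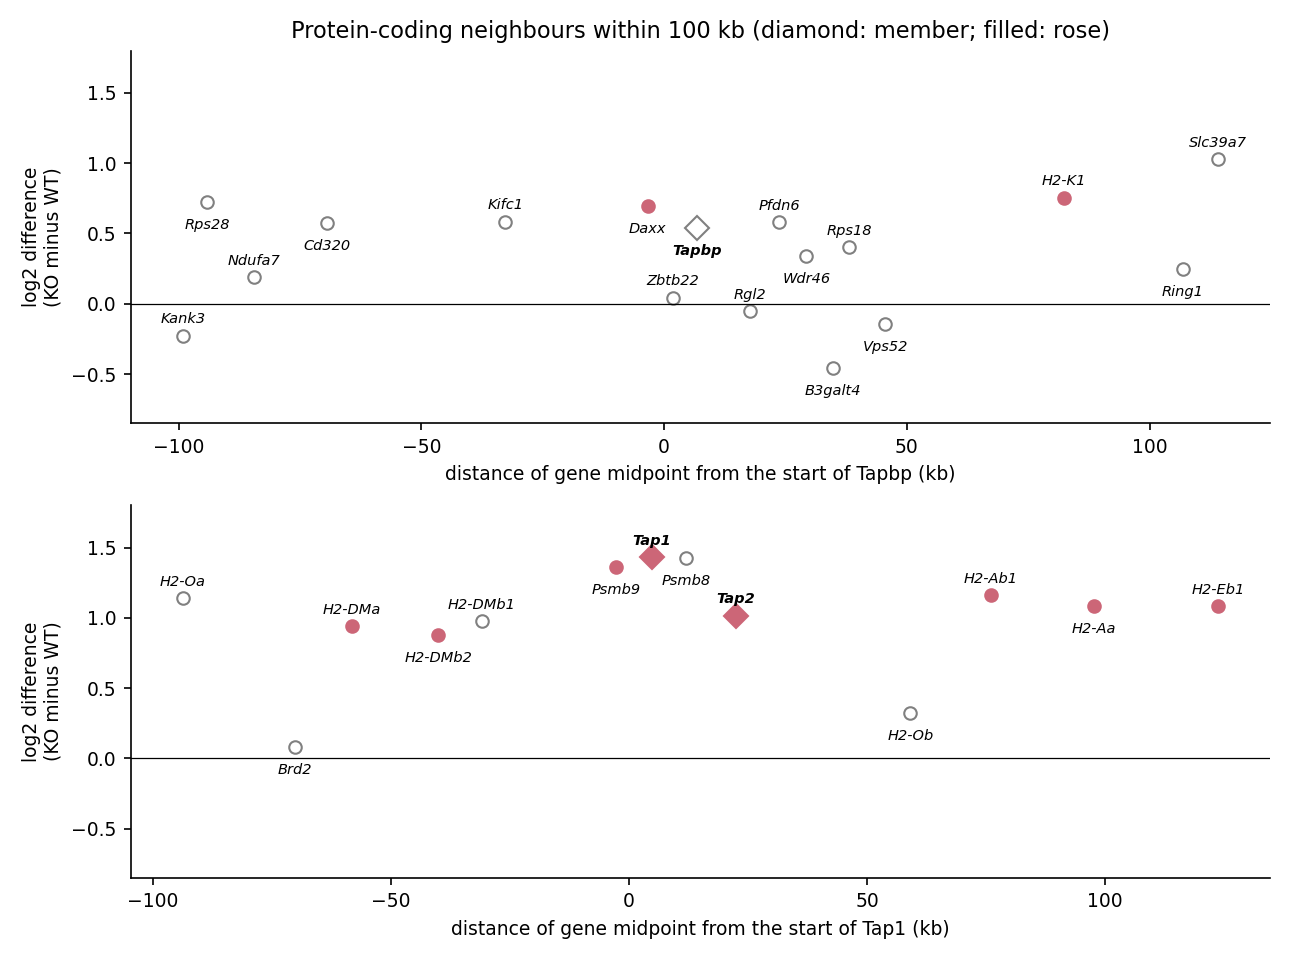
Log2 difference between KO and WT lungs of tested protein-coding genes within 100 kb of Tapbp (top) and of Tap1 or Tap2 (bottom), against the distance in kb of each gene's midpoint from the start of the member, with diamonds for members and filled symbols for genes that rose. Around Tap1 and Tap2 Brd2 and H2-Ob lie closest to 0 and all other points are above 0.8, and around Tapbp they spread on both sides of 0.

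The genes most like each member were found by the root mean square difference of log2(CPM + 1) over the 6 libraries, each gene centred on its own mean, among 12683 genes. For Tap1 they were Ifi44, Ifit3 and Slfn8, at 0.083, 0.098 and 0.11, and for Tap2 they were Vav1, Lgals3bp and B2m, at 0.086, 0.090 and 0.094. The member nearest to Tap1 was Tap2, at 0.29, and the nearest to Tap2 was Tapbpl, at 0.18. For Tapbpl the nearest genes were Tmem219, Slamf9 and Nampt, and for Tapbp they were Tmco4, Suv39h2 and Psat1. Erap1 was nearest to Mff, Gpbp1l1 and Rybp, and among the members to Canx, at 0.071. Calr was nearest to Gusb, Trir and Txndc17, Canx to Cp, Cdv3 and Drg2, and Pdia3 to Sae1, Tcof1 and Ube2z. By this measure Erap1 was closer to each of the 3 chaperones (0.071 to 0.23) than to any of the 4 other interferon-induced members (0.29 to 0.72). Tapbp, too, was closer to each chaperone (0.2145 to 0.2764) than to Tap1 (0.4442) or Tap2 (0.2806), though Tapbpl was nearer still (0.1836). The measure takes in the size of the difference between the groups. The nearest member ranked from 47th (for Tap2) to 354th (for Calr) among the 12683 genes.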

How the data were processed

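Raw counts per Ensembl gene were deposited for each library. For these counts the authors used STAR 2.5 as aligner, mm10 (GRCm38) as genome and HTSeq 0.6.1 as counter, according to the submitters' processing notes and per the labels' protocols. No source used here gives the annotation release, strand setting or counting mode. Symbols, coordinates and exonic lengths came from GENCODE M21 by Ensembl identifier (34490 of 35275 matched), and 0 rows named no gene. Nrdc was found under its synonym Nrd1.

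KO was compared with WT by edgeR 4.0.16 in R 4.3.3 (TMM, filterByExpr with a minimum count of 10, glmQLFit with robust=TRUE, quasi-likelihood F-test, two-sided). Benjamini-Hochberg adjustment ran over all tested genes, with a threshold of 0.05. The SE was obtained by dividing the absolute log2 fold change by the root of F, and RPKM by dividing CPM by exonic kilobases. The procedure was tested on simulated counts. The labels do not say that each library is 1 animal, and p-values then measure only how these samples spread, which may be technical. No pair of libraries was alike within sampling noise (chi-square per degree of freedom 15.4 to 55.7). Alternatives were other scalings, filters, DESeq2 1.42.0, limma 3.58.1 (voom), robust=FALSE, each library left out and the replicate number as a block. The members and lists were chosen with earlier results of these data known. In each list the 2 genes with the smallest p were named, with others where few passed or a role called for it, the latter chosen after their values were seen, as were the motifs and the neighbour window. A gene of the regulator list is not reported here.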

Additional observations from a re-analysis of the deposited data

How the results depend on the processing

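Over all genes, 170 rose and 51 fell. The counts were 578 and 225 without a filter on low counts, 370 and 230 with DESeq2, and 309 and 96 with the replicate number as a block, and 22 to 404 and 2 to 174 with 1 library left out. Members that rose numbered 3, against 5 without the filter and 5 with DESeq2, where Tapbp and Calr joined, and 1 to 5 with 1 library left out. Replicate block: 3 members rose, the same 3 genes as in the fit without it, and no member's call changed. The labels do not say that equal replicate numbers mark pairs, and the numbers were not taken as pairs. Deviations of libraries with equal numbers correlated at 0.0559, 0.0464 and 0.0504. No correlations for unequal numbers are given beside these, so they cannot decide whether equal numbers share a batch. The shift between interferon-induced members and chaperones was 0.456 to 0.638 with 1 library left out and 0.748 with Tap1, Tap2 and Tapbp alone. The log2 difference of Erap1 turned to -0.00352 with DESeq2's size factors, -0.000323 with upper quartile scaling and -0.00351 with DESeq2, and ran from -0.0808 (without KO replicate 3) to 0.0808 (without KO replicate 1) with 1 library left out, at -0.0434 without WT replicate 3. That of Canx ran from -0.0685 (without KO replicate 3) to 0.125 (without KO replicate 1). Tap1 was not called by limma-voom (adjusted p = 0.0743). The cause was not tested. The log2 differences of Tap1, Tap2, Tapbp, Tapbpl, Calr and Pdia3 kept their sign under all alternatives run. Each member had 772 or more counts in every library.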
